A study of Mus musculus with 49 samples.

Results

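The BCL2 family genes *Bcl2*, *Bcl2l1* (BCL-XL), *Mcl1*, *Bax*, *Bak1*, *Bcl2l11* (BIM), *Bid*, *Bad*, *Pmaip1* (NOXA) and *Bbc3* (PUMA) were followed by RNA-seq in mouse CD8+ T cells. They were picked by symbol from gene tables that hold 23992 symbols, with the longest listed transcript standing for each gene. All 10 were found, and all 10 were among the 15566 genes with enough reads to be tested. The cells came from spleens of mice of both sexes on a C57BL/6J background, aged 8 to 24 weeks. The lines were made in B6D2F1 zygotes, and founders were backcrossed to C57BL/6J before use. *Stat5a* KI mice carried Y694F in both *Stat5a* alleles and *Stat5b* KI mice carried Y699F in both *Stat5b* alleles, and each line was compared with its own WT littermates. Each change replaces the tyrosine whose phosphorylation activates the STAT5 protein, was made with CRISPR/Cas9 throughout the body, and came with silent changes beside it. Purified CD8+ cells were collected at 0 hr or after 4, 24 or 48 hr with 500 IU/ml of recombinant human IL-2, which gave 16 groups with 3 libraries in each. The libraries are not stated to be separate mice, so p-values refer to the spread between libraries, which may be partly technical.

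BCL2 family proteins decide whether the outer membrane of the mitochondrion stays intact. BCL2, BCL-XL and MCL1 protect it, BAX and BAK1 form the pores that release cytochrome c, and the BH3-only proteins BIM, BID, BAD, NOXA and PUMA either bind the protectors or act on the pore formers. In T cells, cytokines of the IL-2 family are known to keep cells alive in part by raising the protectors and by restraining the BH3-only genes.

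The reference stretches around the changed codons are shown here because every comparison of genotypes rests on changes in them. In the reference both target codons read TAC for tyrosine, and both lie on chromosome 11 of GRCm38.p6 in a coding exon. The *Stat5a* stretch is chr11:100881738-100881787 on the plus strand with the codon at chr11:100881755-100881757. The *Stat5b* stretch is chr11:100784255-100784304 on the minus strand with the codon at chr11:100784285-100784287. Both stretches hold 50 bases, 17 of them before the codon, and they differ at 3 of the 50 positions. They are given 5′ to 3′ as the reference has them, with the codon in capitals.
Stat5a: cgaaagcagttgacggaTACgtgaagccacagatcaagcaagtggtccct
Stat5b: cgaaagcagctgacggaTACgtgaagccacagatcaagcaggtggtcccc
A point change in a codon leaves the mRNA in place, so read counts of the target cannot check the genotype. At 0 hr, *Stat5a* had RPKM values (reads per kilobase of transcript, relative to library depth) of 19.5, 19.00 and 20.5 in WT and 17.9, 20.6 and 21.5 in *Stat5a* KI libraries, with a log2 fold change of 0.01 ± 0.08 (SE; adjusted p = 0.977, edgeR quasi-likelihood test with Benjamini-Hochberg adjustment). *Stat5b* at 0 hr had 28.3, 29.7 and 29.5 in WT and 26.8, 27.2 and 27.01 in *Stat5b* KI libraries (log2 -0.17 ± 0.11, adjusted p = 0.291). *Stat5b* mRNA was higher in *Stat5b* KI cells at 24 hr (0.37 ± 0.11, adjusted p = 0.00583) and 48 hr (0.47 ± 0.11, adjusted p = 0.000533), and *Stat5a* mRNA in *Stat5a* KI cells did not pass at any time. *Stat5b* mRNA was also higher in *Stat5a* KI cells at 48 hr (0.33 ± 0.11, adjusted p = 0.0156), and at 24 hr the value there was 0.26 ± 0.11 (adjusted p = 0.112). *Stat5a* mRNA was higher in *Stat5b* KI cells at 4 hr (0.34 ± 0.08, adjusted p = 0.000818).

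The deposited tables differed in depth. The 47 libraries used held 17369112 to 60200653 reads on the transcripts kept, with a median of 41410666. The 48th, replicate 3 of *Stat5a* KI at 4 hr, held 1028515 such reads and was left out, so that group had 2 libraries. Replicate 2 of *Stat5a* line WT at 4 hr was the shallow library with the 17369112 reads, which were 44.9% of its mapped reads, beside 71.7% and 72.9% in the other WT libraries of that time. The deposited RPKM divides by all mapped reads, and its values were low, at 56.6 for *Bcl2* beside 106.5 and 112.4 and at 1.75 for *Bbc3* beside 11.6 and 10.3. The tests use read counts, with library totals scaled by TMM. Log2 CPM (read counts relative to the scaled library total) shows single libraries with the same scaling. The TMM factors of replicates 1, 2 and 3 were 1.04, 1.03 and 1.02, and the total is that of reads on kept transcripts. Both choices together raised replicate 2 1.61 times against its RPKM, where the factor was 0.999 in both others. On the log2 CPM scale it was the lowest of its group in 8 genes and the highest in *Mcl1* (9.82 beside 9.60 and 9.61) and *Bak1*. Where a member's call at 4 hr changed without it, the value without it is given. Levels and overlaps below are in RPKM, and of 200 pairs of groups and genes 29 overlapped on 1 scale but not on the other.

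The defining CD8+ T cell genes were present in each of the 47 libraries, with *Cd8a* at 81.0 to 342.5 and *Cd8b1* at 137.4 to 594.0 RPKM. Markers of B, myeloid, erythroid and CD4 T cells were also present, and at 48 hr their sums were higher in KI cells of both lines. At 48 hr in the *Stat5b* line, the summed RPKM of 7 B cell markers was 12.8 in WT and 127.3 in KI cells, led by *Cd79a* at 44.8 in KI cells, and all 7 passed the test. The 8 myeloid markers found summed to 4.02 in WT and 72.1 in KI cells, led by *Lyz2* at 41.0, and all 8 passed. The 6 erythroid markers summed to 6.21 and 162, led by *Hbb-bs* at 50.6, and all 6 passed. The 4 CD8 T cell markers were also higher there, at 1360 RPKM against 889, and all 4 passed, the 3 CD4 T cell markers summed to 15.7 against 3.42, and the 4 NK cell markers to 297 against 412. In *Stat5b* KI cells all 7 B cell and all 6 erythroid markers passed as higher at each of the 4 times. Among *Stat5a* KI cells 2, 4, 7 and 7 of the B cell markers and 2, 4, 7 and 6 of the myeloid markers passed as higher at 0, 4, 24 and 48 hr, while the 6 erythroid markers, with a median log2 difference of 1.41 at 48 hr, did not pass at any time. The KI to WT ratio of these sums at 48 hr in the *Stat5a* line was 3.96 for B cells, 5.6 for myeloid cells and 2.71 for erythroid cells, against 9.93, 18.0 and 26.2 in the *Stat5b* line. At 0 hr the same ratios were lower, at 2.25, 2.11 and 1.24 for *Stat5a* KI and 3.87, 3.94 and 9.16 for *Stat5b* KI. For the CD8 T cell markers the ratio turned with time, from 0.844 at 0 hr to 1.44 at 48 hr for *Stat5a* KI and from 0.788 to 1.53 for *Stat5b* KI. At 0 hr 2 and 4 of these 4 markers passed as lower in *Stat5a* and *Stat5b* KI cells, and at 48 hr all 4 passed as higher in both. The markers moved with genotype, and their part in the results below was not tested. In such bulk samples, fewer cells of a type and less RNA per cell cannot be told apart.

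**Figure D1:**
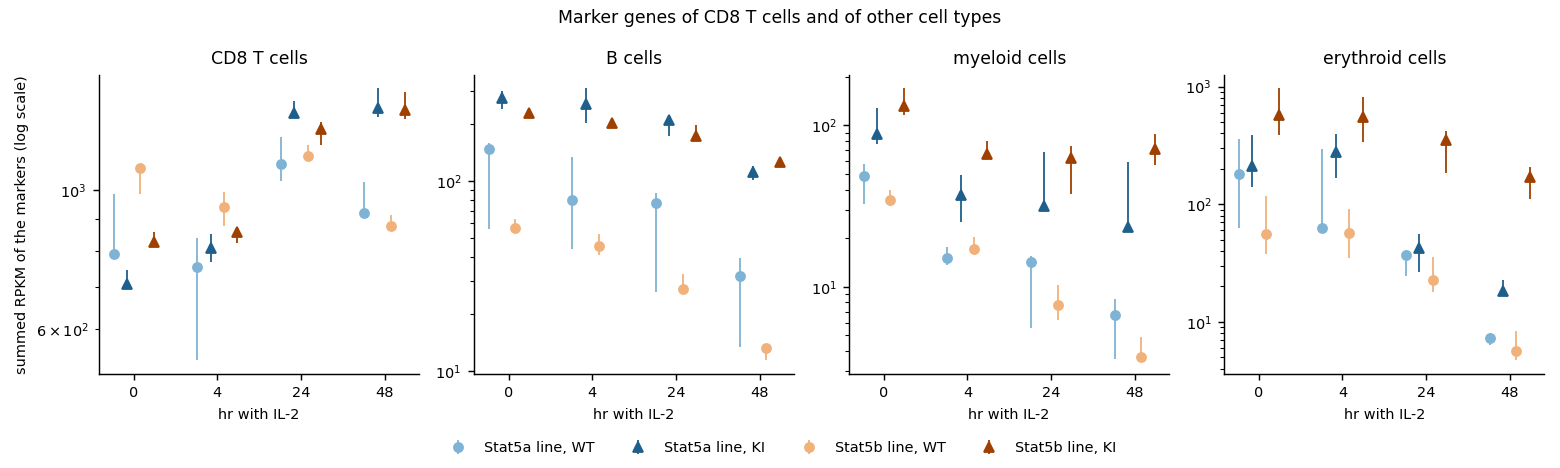
Summed RPKM (log axis) of marker genes for CD8 T, B, myeloid and erythroid cells at 0, 4, 24 and 48 hr with IL-2; symbols are the median of each group and bars run from the lowest to the highest library. In the *Stat5b* line the B cell, myeloid and erythroid sums of KI cells lie above those of WT cells at every time, by 9.93, 18.0 and 26.2 times in the means at 48 hr.

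Averaged over the 47 libraries, *Mcl1* had the highest mean, with group means from 73.5 to 169.3 RPKM, followed by the pore former *Bax* at 69.1, *Bcl2* at 59.3 and *Bak1* at 37.2. *Bcl2l11* averaged 17.6, *Bcl2l1* 14.03, *Pmaip1* 13.1, *Bid* 13.1, *Bbc3* 9.13 and *Bad* 5.39 RPKM. The order was not the same in every group, since at 48 hr in WT cells the mean of *Bax* was above that of *Mcl1* in both lines (88.6 against 76.3 for *Stat5a*, 92.4 against 73.5 for *Stat5b*). The genes also differed in how far they moved across the 16 groups. The highest group mean was 18.6 times the lowest for *Pmaip1*, 9.44 times for *Bbc3*, 8.57 times for *Bcl2* and 6.30 times for *Bcl2l1*. It was 4.52 times for *Bcl2l11* and between 1.84 and 2.89 times for *Bad*, *Bid*, *Bax*, *Mcl1* and *Bak1*.

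**Figure D2:**
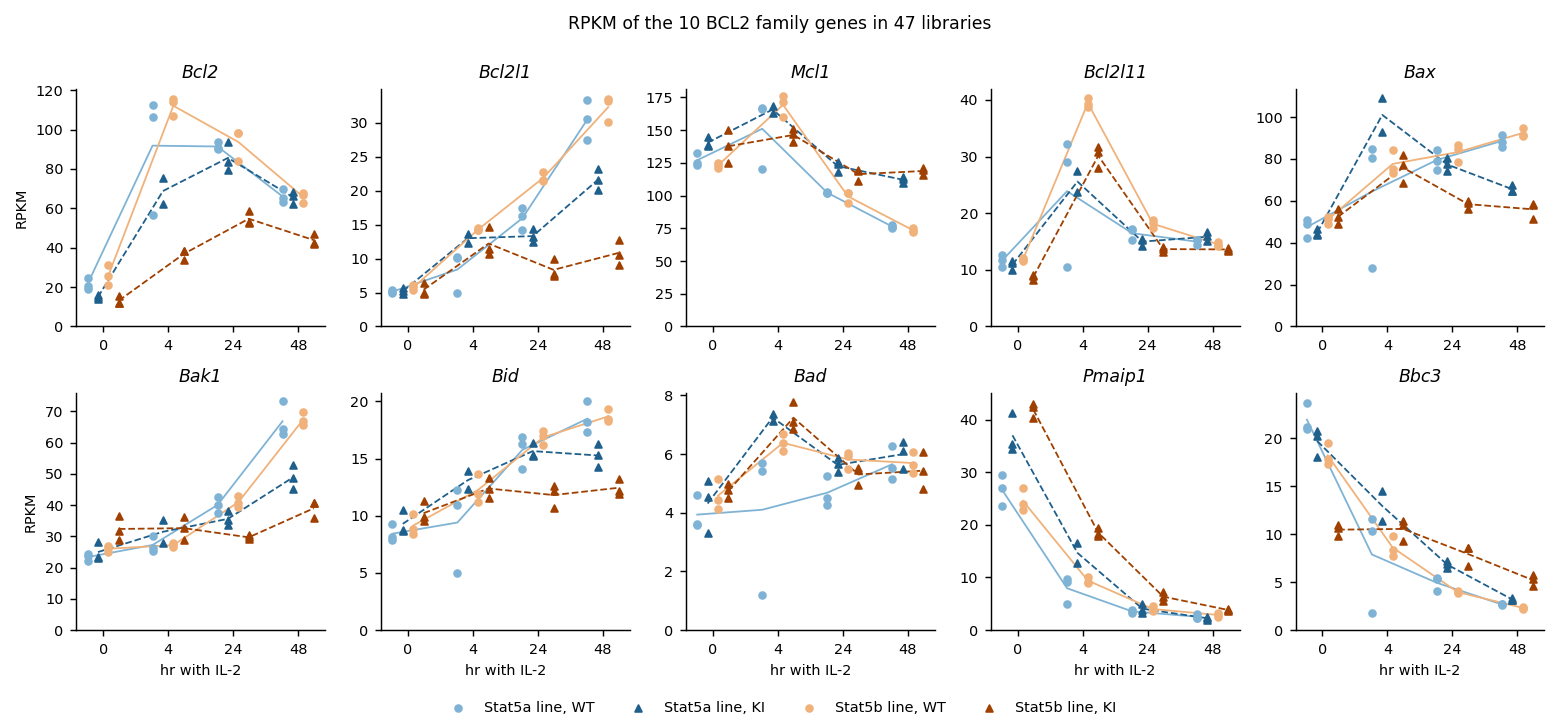
RPKM of each of the 10 genes (linear axes from 0) against hr with IL-2; every point is 1 library of 47 and lines join group means. *Bcl2* and *Bcl2l11* are highest at 4 hr in WT cells of the *Stat5b* line, *Bcl2l1* and *Bak1* at 48 hr in WT cells, and *Pmaip1* and *Bbc3* at 0 hr; replicate 2 of *Stat5a* line WT at 4 hr lies apart from the other WT points in most panels.

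Changes in WT cells cultured with IL-2 were read by setting 4, 24 and 48 hr against 0 hr in each line. None of the 16 groups was cultured without IL-2, so IL-2 and time in culture cannot be told apart, and a change with IL-2 below stands for both. In both lines *Bcl2*, *Bcl2l1* and *Bax* rose at all 3 times, and *Pmaip1* and *Bbc3* fell at all 3. *Bak1* and *Bid* rose at 24 and 48 hr, *Bcl2l11* at 4 and 24 hr, and *Mcl1* rose at 4 hr and fell at 24 and 48 hr. Of the 10 genes, 8 passed the test in the *Stat5a* line at 4 hr (6 higher, 2 lower), 9 at 24 hr (6 and 3) and 8 at 48 hr (5 and 3). The shares of all tested genes that passed in the same comparisons were 58.4%, 59% and 71.7%. In the *Stat5b* line the counts were 8 (6 and 2), 9 (6 and 3) and 8 (5 and 3), beside 49.5%, 59.6% and 69.9% of all genes. The median log2 fold change of the 10 genes at 48 hr was 0.50 for the *Stat5a* and 0.41 for the *Stat5b* line, where the medians over all genes were -0.12 and -0.13. A call means an adjusted p of at most 0.05 by edgeR's quasi-likelihood test. The 3 times share the WT libraries of 0 hr. Without the shallow WT library of 4 hr, 9 genes were called in the *Stat5a* line at that time, with 58.3% of all genes: *Bak1* was lost, and *Bid* (0.28, adjusted p = 0.00822, edgeR) and *Bad* (0.32, adjusted p = 0.0258) passed.

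KI cells were set against littermate WT cells at each time. The paper reports, by flow cytometry, fewer memory and virtual memory CD8+ T cells in spleens of both KI lines. It also reports a shift in the make-up of the memory cells. In bulk RNA, such subset differences and changes within like cells cannot be told apart, and the part of the subsets was not tested. In *Stat5b* KI cells *Bcl2* was lower and *Pmaip1* higher at all 4 times, *Bcl2l1* was lower at 4, 24 and 48 hr, and *Bax*, *Bak1* and *Bid* were lower at 24 and 48 hr. In *Stat5a* KI cells at 48 hr *Bcl2l1*, *Bax*, *Bak1* and *Bid* were lower and *Mcl1* higher. In *Stat5a* KI cells 2 of 10 genes passed at 0 hr (1 higher, 1 lower), 5 at 4 hr (4 and 1), 2 at 24 hr (1 and 1) and 5 at 48 hr (1 and 4), beside 3.44%, 24.6%, 18.5% and 44.3% of all genes. In *Stat5b* KI cells 4 passed at 0 hr (1 and 3), 5 at 4 hr (1 and 4), 9 at 24 hr (3 and 6) and 8 at 48 hr (3 and 5), beside 22.9%, 27.3%, 50.4% and 63.6%. The median log2 fold change of the 10 genes in *Stat5b* KI cells was -0.46 at 24 hr and -0.42 at 48 hr, and over all genes it was 0.07 and 0.10. In *Stat5a* KI cells the medians were -0.09 and -0.15, against 0.01 and 0.04 over all genes. The *Stat5a* counts at the first 3 times rested on single libraries. At 0 hr the count was 1 without WT replicate 1 and 0 without WT replicate 3 or KI replicate 1. At 24 hr it was 0 without replicate 3 of either genotype and 1 without any other library. At 4 hr it was 3 without WT replicate 2 or KI replicate 2, 8 without WT replicate 1 or 3, and 0 without KI replicate 1. Without the shallow WT replicate 2, 1 gene was higher and 2 were lower, beside 12.2% of all genes. For fits without any other library, here and below, the share of all genes is not given.

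**Figure D3:**
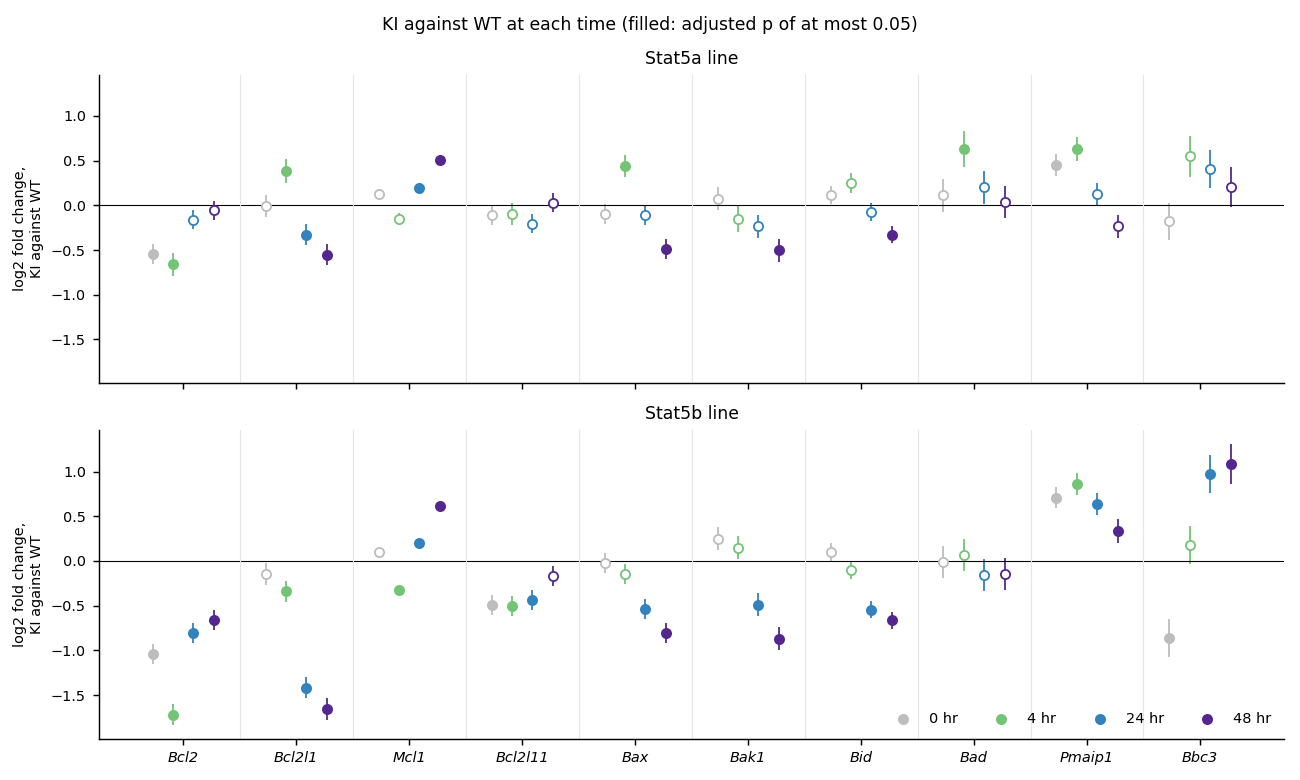
Log2 fold change of KI against WT cells (points) with its SE (bars) for the 10 genes at 0, 4, 24 and 48 hr with IL-2, *Stat5a* line above and *Stat5b* line below; filled points have an adjusted p of at most 0.05. The lowest points are *Bcl2* at 4 hr (-1.72) and *Bcl2l1* at 48 hr (-1.66), both in *Stat5b* KI cells, and *Bbc3* in those cells goes from -0.86 at 0 hr to 1.08 at 48 hr.

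*Bcl2* encodes the founding member of the family, a survival protein of the outer mitochondrial membrane. It is annotated at chr1:106538176-106714290 (GRCm38.p6, minus strand), and its transcript NM_009741 is 7207 bases long. In WT cells of the *Stat5b* line its RPKM was 20.8, 25.7 and 31.01 at 0 hr, 107.03, 113.8 and 115.4 at 4 hr, 98.5, 84.1 and 98.5 at 24 hr and 62.6, 67.6 and 66.9 at 48 hr. All libraries with IL-2 were above all libraries at 0 hr, and the mean level was highest at 4 hr. The log2 fold change against 0 hr was 1.94 ± 0.12 at 4 hr (adjusted p = 1.45e-16, edgeR), 1.67 at 24 hr and 1.17 at 48 hr. *Stat5b* KI cells had 11.9, 15.6 and 11.7 at 0 hr, 38.4, 33.7 and 38.4 at 4 hr, 58.5, 52.6 and 52.9 at 24 hr and 42.6, 46.9 and 42.1 at 48 hr. At each of the 4 times the KI libraries lay below all WT libraries. The log2 difference of KI against WT cells was -1.04 ± 0.11 at 0 hr (adjusted p = 5.44e-08, edgeR) and -1.72 ± 0.11 at 4 hr (adjusted p = 7.18e-14). It was -0.81 ± 0.11 at 24 hr (adjusted p = 1.7e-07) and -0.66 ± 0.11 at 48 hr (adjusted p = 3.29e-06).

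WT cells of the *Stat5a* line had *Bcl2* at 20.7, 19.3 and 24.7 RPKM at 0 hr, 106.5, 56.6 and 112.4 at 4 hr, 93.7, 90.6 and 90.01 at 24 hr and 69.7, 63.3 and 65.1 at 48 hr. The *Stat5a* KI cells had 13.9, 16.1 and 14.8 at 0 hr, 61.95 and 75.6 at 4 hr, 79.3, 83.7 and 93.8 at 24 hr and 62.3, 66.5 and 68.3 at 48 hr. KI libraries lay below all WT libraries at 0 hr and overlapped with them at 24 and 48 hr. The overlap in RPKM at 4 hr came from WT replicate 2, and on the log2 CPM scale the KI libraries (9.13 and 9.47) lay below all WT libraries (10.01, 9.79 and 10.09). The KI difference was -0.55 ± 0.11 at 0 hr (adjusted p = 0.00489, edgeR) and -0.66 ± 0.13 at 4 hr (adjusted p = 0.000612). The call at 0 hr was lost without WT replicate 3 (-0.47, adjusted p = 0.0659) or KI replicate 1 (-0.49, adjusted p = 0.0585), and that at 4 hr without KI replicate 1 (-0.48, adjusted p = 0.106). With only the groups compared, 0 of the 10 genes passed in this line at 0 and 4 hr, beside 4 and 0 of all genes. At 0 hr limma and a fit of all 48 libraries also gave 0, beside 465 of 11735 and 43 of 15404 genes. Without the shallow WT library the 4 hr difference was -0.74. At 24 and 48 hr it did not pass, at -0.16 ± 0.11 (adjusted p = 0.354) and -0.06 ± 0.11 (adjusted p = 0.715).

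*Bcl2l1* encodes BCL-XL, a survival protein induced by cytokines and antigen in T cells. It lies at chr2:152758732-152833803 on the minus strand, where *Cox4i2* overlaps it on the other strand, and reads of the pair cannot be told apart if strand was not used in counting, which is not given in the sources used here. Its RPKM in WT cells of the *Stat5b* line was 5.34, 6.06 and 5.74 at 0 hr, 14.2, 14.2 and 14.5 at 4 hr, 21.4, 22.8 and 21.5 at 24 hr and 33.6, 30.2 and 33.3 at 48 hr. Unlike *Bcl2*, its mean was higher at each later time, with no overlap between times. The log2 fold change against 0 hr was 1.15, 1.75 and 2.33 ± 0.12 at 4, 24 and 48 hr. In *Stat5b* KI cells it was at 4.99, 6.43 and 4.82 at 0 hr, 11.4, 14.6 and 10.7 at 4 hr, 7.39, 9.90 and 7.74 at 24 hr and 10.6, 12.8 and 9.11 at 48 hr. KI and WT libraries overlapped at 0 hr and, in RPKM but not in log2 CPM, at 4 hr, and at 24 and 48 hr all KI libraries lay below all WT libraries. The KI difference was -1.42 ± 0.12 at 24 hr (adjusted p = 3.3e-12, edgeR) and -1.66 ± 0.12 at 48 hr (adjusted p = 2.01e-14). At 4 hr it was -0.34 ± 0.12 (adjusted p = 0.028), a call lost without any 1 of 5 of the 6 libraries, all but KI replicate 2.

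*Bcl2l1* in WT cells of the *Stat5a* line was at 5.08, 5.39 and 4.91 RPKM at 0 hr, 14.2, 16.3 and 17.4 at 24 hr and 27.5, 33.4 and 30.6 at 48 hr. *Stat5a* KI cells had 5.63, 5.19 and 4.75 at 0 hr, 14.4, 13.2 and 12.4 at 24 hr and 23.2, 21.5 and 20.05 at 48 hr. The genotypes overlapped at 0 hr and, in RPKM but not in log2 CPM, at 24 hr. They did not overlap at 48 hr, where the log2 difference was -0.55 ± 0.12 (adjusted p = 0.000193, edgeR). At 24 hr the difference was -0.33 ± 0.12 (adjusted p = 0.047), and this call was lost without any 1 of 5 of the 6 libraries, all but WT replicate 1. At 4 hr *Bcl2l1* was higher in KI cells (0.39 ± 0.13, adjusted p = 0.0305), with 10.2, 4.91 and 10.1 in WT and 13.6 and 12.4 in KI libraries, which did not overlap. Without the shallow WT replicate 2 that difference was 0.29 (adjusted p = 0.159), and it was also lost without KI replicate 1 (0.35, adjusted p = 0.223) or KI replicate 2 (0.44, adjusted p = 0.0576).

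*Mcl1* encodes a short-lived survival protein on which T cells depend, and lies at chr3:95656944-95663179 on the plus strand. Its RPKM in WT cells of the *Stat5b* line was 124.7, 123.7 and 120.8 at 0 hr, 176, 160.2 and 172 at 4 hr, 101.6, 94.5 and 101.98 at 24 hr and 71.96, 73.2 and 75.3 at 48 hr. The 4 hr libraries lay above and the 24 and 48 hr libraries below all 0 hr libraries. The log2 fold change against 0 hr was 0.29 at 4 hr, -0.50 at 24 hr and -0.92 ± 0.06 at 48 hr (adjusted p = 1.46e-16 at 48 hr, edgeR). In *Stat5b* KI cells it was at 125.2, 150.3 and 137.7 at 0 hr, 147.3, 150.8 and 140.9 at 4 hr, 119.2, 111.3 and 118.6 at 24 hr and 120.9, 115.6 and 119.9 at 48 hr. The genotypes did not overlap in RPKM, with KI below WT at 4 hr and above it at 0, 24 and 48 hr, but at 0 hr they overlapped in log2 CPM. The 0 hr difference of 0.10 ± 0.06 did not pass (adjusted p = 0.226). KI cells were lower at 4 hr (-0.32 ± 0.06, adjusted p = 5.3e-05) and higher at 24 hr (0.20 ± 0.06, adjusted p = 0.00411) and 48 hr (0.61 ± 0.06, adjusted p = 1.7e-11). In the *Stat5a* line at 48 hr, WT cells had 75.1, 76.2 and 77.62 and KI cells 113.9, 112.8 and 109.8 RPKM, again without overlap. There KI cells were higher by 0.51 ± 0.06 (adjusted p = 8.47e-09, edgeR). At 24 hr the difference was 0.20 ± 0.06 (adjusted p = 0.0149), lost without WT replicate 1 (adjusted p = 0.103), WT replicate 3 (adjusted p = 0.0926) or KI replicate 3 (adjusted p = 0.0654).

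Added up per library, the RPKM of the 3 survival genes had a different make-up in the genotypes of the *Stat5b* line at 48 hr. The sum there was 171.5 ± 3.77 (SD, n = 3) in WT and 173.5 ± 2.22 in KI cells, with overlapping libraries. The order depended on the scale. RPKM was also rescaled by the TMM effective library size, which is the reads on kept transcripts times the TMM factor. The sum was then 165.9 ± 1.10 in WT and 159 ± 2.03 in KI cells, without overlap. *Mcl1* made up 42.9% of it in WT and 68.5% in KI cells, *Bcl2* 38.3% and 25.3%, and *Bcl2l1* 18.9% and 6.24%. At 4 hr the sums stood apart, at 295.7 ± 6.74 in WT and 195.4 ± 4.81 in KI cells, and also at 24 hr, at 214.9 ± 11.8 and 179.4 ± 5.63. At 0 hr they were 154.6 ± 3.42 and 156.2 ± 15.2. For the *Stat5a* line at 48 hr the sum was 172.9 ± 0.522 in WT and 199.4 ± 1.34 in KI cells, with every KI library above every WT library. These sums carry no test.

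**Figure D4:**
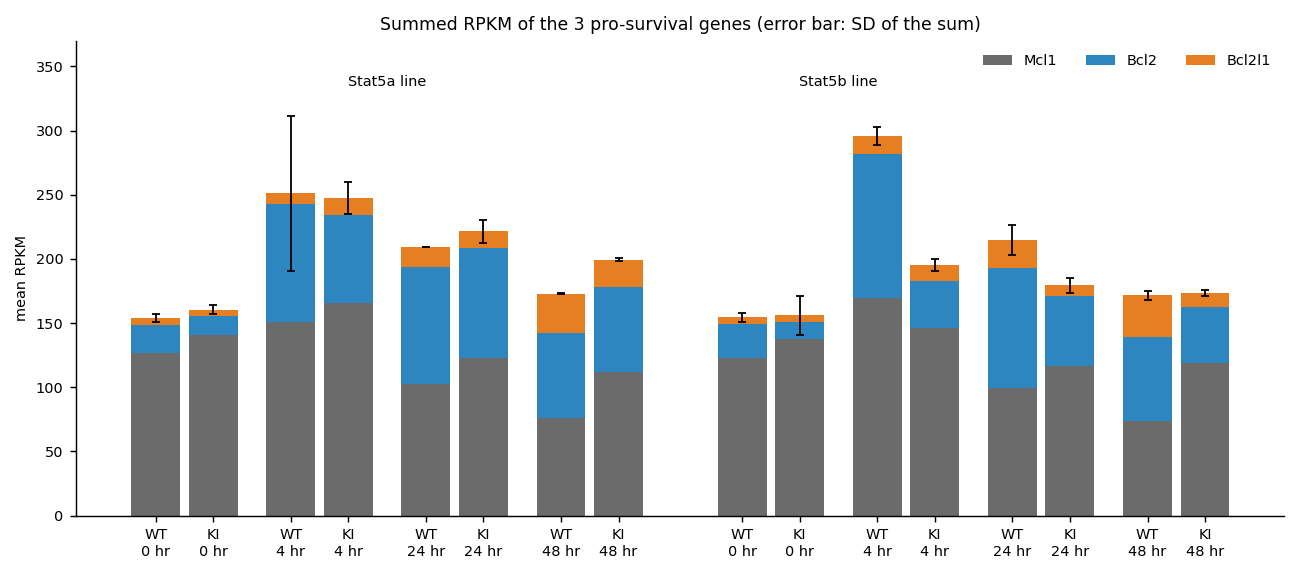
Mean RPKM of *Mcl1*, *Bcl2* and *Bcl2l1* stacked for each of the 16 groups (y axis from 0), with the SD of the sum over libraries as bars. At 48 hr in the *Stat5b* line the deposited RPKM adds up to 171.5 in WT and 173.5 in KI cells. Rescaled by the TMM effective library size it is 165.9 and 159. KI cells have a larger *Mcl1* part and smaller *Bcl2* and *Bcl2l1* parts.

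The pore formers rose with IL-2 in WT cells and stood lower in KI cells at 48 hr in both lines. *Bax* (chr7:45461695-45466903, minus strand) in WT cells of the *Stat5b* line was at 49.1, 51.5 and 52.2 RPKM at 0 hr, 84.6, 86.5 and 78.7 at 24 hr and 91.5, 94.9 and 90.9 at 48 hr. *Stat5b* KI cells had 52.1, 56.1 and 49.02 at 0 hr, 58.9, 56.2 and 60.1 at 24 hr and 58.5, 57.9 and 51.4 at 48 hr. The genotypes overlapped at 0 hr but not at 24 or 48 hr. *Bax* rose in WT cells by 0.69 ± 0.11 at 48 hr (adjusted p = 1.43e-06, edgeR), and KI cells were lower, with log2 differences of -0.54 ± 0.11 at 24 hr (adjusted p = 0.000116) and -0.80 ± 0.11 at 48 hr (adjusted p = 1.09e-07). At 48 hr the *Stat5a* line had 85.9, 91.7 and 88.3 RPKM in WT and 67.5, 64.6 and 64.5 in KI cells. These did not overlap, and the KI difference was -0.48 ± 0.11 (adjusted p = 0.000519, edgeR). At 4 hr *Bax* was called higher in *Stat5a* KI cells (0.44 ± 0.12, adjusted p = 0.0105), with 84.6, 27.97 and 80.7 in WT and 109.3 and 92.8 in KI libraries. This call was lost without the shallow WT replicate 2 (0.22, adjusted p = 0.057) or KI replicate 1 (0.36, adjusted p = 0.199).

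*Bak1*, the other pore former, lies at chr17:27019812-27028627 on the minus strand and is overlapped on the other strand by *Ggnbp1*. WT cells of the *Stat5b* line had it at 24.98, 26.3 and 26.8 RPKM at 0 hr, 26.7, 27.2 and 27.7 at 4 hr, 39.3, 42.9 and 40.5 at 24 hr and 66.8, 65.7 and 69.7 at 48 hr. It rose after 4 hr, by 0.47 at 24 hr and 1.20 ± 0.13 at 48 hr (adjusted p = 3.26e-10, edgeR). *Stat5b* KI cells had 31.7, 36.6 and 28.8 at 0 hr, 32.6, 36.3 and 28.9 at 4 hr, 29.1, 30.3 and 29.7 at 24 hr and 40.6, 40.5 and 35.7 at 48 hr. All KI libraries were above all WT libraries at 0 hr and, in RPKM but not in log2 CPM, at 4 hr. At these times the log2 difference did not pass (0.25 ± 0.13, adjusted p = 0.173, and 0.15 ± 0.13, adjusted p = 0.428). At 24 and 48 hr all KI libraries were below all WT libraries, and KI cells were lower, with differences of -0.49 ± 0.13 at 24 hr (adjusted p = 0.0019) and -0.87 ± 0.13 at 48 hr (adjusted p = 4.08e-07). In *Stat5a* KI cells at 48 hr *Bak1* was at 52.9, 48.6 and 45.1 against 62.6, 73.3 and 64.5 in WT cells (-0.50 ± 0.13, adjusted p = 0.00168). The rise of *Bak1* at 4 hr in WT cells of the *Stat5a* line (0.33) turned to -0.04 (adjusted p = 0.737) without the shallow replicate 2, and it did not pass without WT replicate 1 of 0 hr (0.29, adjusted p = 0.0935). The summed RPKM of *Bax* and *Bak1* at 48 hr was 159.8 ± 1.35 (SD, n = 3) in WT and 94.9 ± 6.75 in KI cells of the *Stat5b* line, and 155.4 ± 8.57 and 114.4 ± 5.49 in the *Stat5a* line.

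Among the BH3-only genes, *Bcl2l11* and *Bid* rose with IL-2 while *Pmaip1* and *Bbc3* fell. *Bcl2l11* encodes BIM, which binds all the survival proteins and sets the death of T cells deprived of cytokine. It lies at chr2:128126038-128162547 on the plus strand, and *Acoxl* overlaps it on the same strand, so that reads in the shared stretch are uncertain. In WT cells of the *Stat5b* line its RPKM was 11.6, 11.6 and 12.1 at 0 hr, 40.3, 39.2 and 38.8 at 4 hr, 18.8, 17.3 and 18.2 at 24 hr and 14.2, 14.4 and 14.97 at 48 hr. The 4 hr libraries lay far above the rest, and the rise was 1.57 ± 0.11 at 4 hr (adjusted p = 2.23e-14, edgeR) and 0.43 at 24 hr. At 48 hr the value of 0.13 ± 0.11 did not pass (adjusted p = 0.308). *Stat5b* KI cells had 8.20, 8.92 and 9.05 at 0 hr, 31.7, 30.8 and 28.00 at 4 hr, 13.7, 13.2 and 14.01 at 24 hr and 13.8, 13.4 and 13.6 at 48 hr, below all WT libraries at each time. KI cells were lower, with log2 differences of -0.49 ± 0.11 at 0 hr (adjusted p = 0.00113), -0.50 ± 0.11 at 4 hr (adjusted p = 0.000557) and -0.44 ± 0.11 at 24 hr (adjusted p = 0.00106), and the 48 hr value was -0.17 ± 0.11 (adjusted p = 0.172). In *Stat5a* KI cells *Bcl2l11* did not pass at any time with all 47 libraries, with differences from -0.20 to 0.03. Without the shallow WT library it passed at 4 hr (-0.33, adjusted p = 0.00291). The rise at 24 hr in WT cells of that line (0.33, adjusted p = 0.00875) was lost without WT replicate 2 of 0 hr (adjusted p = 0.0566).

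*Bid*, whose protein is cut by caspase 8 and then acts on the pore formers, lies at chr6:120893119-120917062 on the minus strand. Its RPKM in WT cells of the *Stat5b* line was 8.45, 10.1 and 8.84 at 0 hr and 19.3, 18.3 and 18.5 at 48 hr, and *Stat5b* KI cells had 9.88, 11.3 and 9.54 at 0 hr and 13.3, 12.1 and 11.9 at 48 hr. The genotypes overlapped at 0 hr and stood apart at 48 hr. *Bid* rose in WT cells by 0.86 ± 0.10 (adjusted p = 1.58e-09, edgeR) and was lower in KI cells at 24 hr (-0.54 ± 0.10, adjusted p = 2.25e-05) and 48 hr (-0.67 ± 0.10, adjusted p = 4.36e-07). The 48 hr difference in *Stat5a* KI cells was -0.33 ± 0.10 (adjusted p = 0.00713). At 4 hr in WT cells of the *Stat5b* line the rise of 0.25 ± 0.10 (adjusted p = 0.0383) was lost without replicate 1 or 3 of 0 hr or replicate 2 or 3 of 4 hr, where adjusted p was 0.0558 to 0.21. *Bad*, the BH3-only gene whose protein is held inactive by survival kinases, lies at chr19:6941861-6951905 on the plus strand and is overlapped on the other strand by *Gpr137*. Its lowest RPKM over the 47 libraries was 1.20, in WT replicate 2 of the *Stat5a* line at 4 hr, and the others were between 3.32 and 7.76. It passed the test in 1 of the 14 comparisons above, *Stat5a* KI against WT at 4 hr (0.63 ± 0.20, adjusted p = 0.022), and not there without WT replicate 2 (0.31, adjusted p = 0.115), KI replicate 1 (adjusted p = 0.158) or KI replicate 2 (adjusted p = 0.0723). Without the same WT replicate 2 it passed for IL-2 at 4 hr in WT cells (0.32, adjusted p = 0.0258, edgeR).

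*Pmaip1* encodes NOXA, a BH3-only protein that binds MCL1 and promotes its breakdown. In WT cells of the *Stat5b* line its RPKM was 23.96, 22.8 and 27.02 at 0 hr, 9.13, 9.04 and 10.1 at 4 hr, 3.77, 3.62 and 4.62 at 24 hr and 2.56, 2.89 and 3.20 at 48 hr. The level was lower at each later time, without overlap between times, and the log2 fold change at 48 hr was -3.27 ± 0.13 (adjusted p = 7.04e-22, edgeR). *Stat5b* KI cells had 40.4, 43.03 and 42.4 at 0 hr, 18.3, 19.4 and 17.9 at 4 hr, 7.16, 5.63 and 6.30 at 24 hr and 3.65, 4.00 and 3.84 at 48 hr, above all WT libraries at each time. KI cells were higher by 0.71 ± 0.12 at 0 hr (adjusted p = 5.11e-05), 0.86 ± 0.12 at 4 hr (adjusted p = 1.5e-06), 0.64 ± 0.13 at 24 hr (adjusted p = 5.85e-05) and 0.34 ± 0.13 at 48 hr (adjusted p = 0.0237). The 48 hr call was lost without WT replicate 1 or 2 or KI replicate 2 or 3, where adjusted p was 0.0775 to 0.181. In the *Stat5a* line WT cells had 23.6, 29.4 and 26.97 at 0 hr and 9.69, 4.96 and 9.23 at 4 hr, and KI cells 41.3, 34.4 and 35.4 at 0 hr and 16.5 and 12.8 at 4 hr. The genotypes did not overlap at either time, with KI cells higher by 0.45 ± 0.12 (adjusted p = 0.0278) and 0.63 ± 0.14 (adjusted p = 0.00182). The 0 hr call was lost without WT replicate 1 (adjusted p = 0.136), WT replicate 3 (adjusted p = 0.145) or KI replicate 1 (adjusted p = 0.219), and the 4 hr call without KI replicate 1 (adjusted p = 0.122). Without WT replicate 2 the 4 hr difference was 0.56 (adjusted p = 0.00879, edgeR).

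*Bbc3* encodes PUMA, a BH3-only protein that binds all the survival proteins, and lies at chr7:16308398-16318334 on the plus strand. In WT cells of the *Stat5b* line it was at 19.5, 17.8 and 17.3 RPKM at 0 hr, 9.78, 7.72 and 8.33 at 4 hr, 4.08, 3.97 and 3.84 at 24 hr and 2.21, 2.46 and 2.30 at 48 hr. The times did not overlap, and the log2 fold change at 48 hr was -3.15 ± 0.23 (adjusted p = 7.85e-15, edgeR). *Stat5b* KI cells had 10.95, 10.6 and 9.86 at 0 hr, 11.4, 10.99 and 9.26 at 4 hr, 8.56, 6.73 and 8.51 at 24 hr and 5.75, 4.57 and 5.29 at 48 hr. KI libraries lay below all WT libraries at 0 hr, overlapped with them at 4 hr and lay above them at 24 and 48 hr. The KI difference was -0.86 ± 0.21 at 0 hr (adjusted p = 0.00245), 0.18 ± 0.21 at 4 hr (adjusted p = 0.563), 0.97 ± 0.21 at 24 hr (adjusted p = 0.000271) and 1.08 ± 0.22 at 48 hr (adjusted p = 6.64e-05). *Bbc3* in WT cells of the *Stat5a* line went from 21.2, 23.6 and 21.00 at 0 hr to 2.65, 2.68 and 2.71 at 48 hr, and KI cells from 20.8, 18.1 and 20.3 at 0 hr to 3.16, 3.31 and 3.11 at 48 hr. KI libraries were above all WT libraries at 48 hr, but the difference of 0.20 ± 0.22 did not pass (adjusted p = 0.491), and none of the 4 times passed in that line.

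Letters known from factors of T cell survival were looked for on both strands of the 250 bases before and 50 bases after annotated starts (RefSeq, GRCm38.p6). The table held 15 such windows for 9 of the 10 genes. The STAT motif TTCNNNGAA was in none of the 15 and in 8.3% of the 32851 windows of all genes. The FOXO letters GTAAACA, in 3.65% of all windows, were in 1 window each of *Bcl2l11* and *Bbc3*. CACGTG, in 7.15%, was in 1 window each of *Bax* and *Bbc3*. The FOXO letters are printed since *Foxo1* is among the genes measured below. They begin 227 bases before the *Bcl2l11* start and 167 bases before a *Bbc3* start. The stretches printed around them hold 29 bases each, chr2:128125800-128125828 for *Bcl2l11*, which overlaps an exon of predicted *Acoxl* transcripts, and chr7:16310083-16310111 for *Bbc3*, which lies within the gene but in no exon. Both are given on the plus strand 5′ to 3′, with the letters in capitals (as their reverse complement in *Bbc3*).
Bcl2l11: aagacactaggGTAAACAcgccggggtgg
Bbc3: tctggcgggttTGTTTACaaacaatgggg
A match is a description and not a binding site. The genes that hold it had different time courses in WT cells, with *Bcl2l11* highest at 4 hr and *Bbc3* at 0 hr.

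Whether KI cells changed differently with IL-2 was tested as the log2 response of KI cells minus that of WT cells. In the *Stat5b* line 2 of 10 genes differed at 4 hr (both lower), 5 at 24 hr (1 higher, 4 lower) and 7 at 48 hr (3 and 4), beside 1.99%, 33.8% and 49.4% of all genes. In the *Stat5a* line 0 differed at 4 hr, 0 at 24 hr and 6 at 48 hr (2 and 4), beside 1.54%, 5.11% and 28% of all genes. At 48 hr in the *Stat5b* line the *Bcl2l1* response was 2.33 in WT and 0.81 in KI cells, a difference of -1.51 ± 0.17 (adjusted p = 2.05e-09, edgeR). *Bax*, *Bak1* and *Bid* gave 0.69, 1.20 and 0.86 in WT cells and -0.10, 0.08 and 0.09 in KI cells. Their differences were -0.78 ± 0.16, -1.12 ± 0.18 and -0.77 ± 0.14 (adjusted p = 8.63e-05, 3.56e-06 and 2.41e-05). *Bbc3* gave -3.15 in WT and -1.20 in KI cells, a difference of 1.95 ± 0.30 (adjusted p = 1.56e-06), and *Mcl1* -0.92 and -0.40, a difference of 0.52 ± 0.08 (adjusted p = 1.93e-06). The *Pmaip1* responses of -3.27 and -3.64 did not differ past the threshold (-0.37 ± 0.18, adjusted p = 0.0785).

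*Bcl2* separated the level from the response. At 4 hr its response in *Stat5b* KI cells was 1.27 against 1.94 in WT cells (-0.67 ± 0.16, adjusted p = 0.0118, edgeR), and at 48 hr it was 1.56 against 1.17 (0.38 ± 0.16, adjusted p = 0.0415). At 48 hr the response was larger in KI cells while the level was lower. The 4 hr call was lost without WT replicate 1 or 2 of 0 hr, KI replicate 2 of 0 hr or KI replicate 2 of 4 hr (adjusted p of 0.0528 to 0.107). The 48 hr call was lost without any 1 of 9 of the 12 libraries (adjusted p of 0.0587 to 0.249), all but WT replicate 1 of 0 hr, KI replicate 2 of 0 hr and KI replicate 1 of 48 hr. The count at 4 hr was 1 without any of the same 4 libraries. *Mcl1* at 4 hr differed by -0.42 ± 0.08 (adjusted p = 0.00166), and this call held without any 1 library.

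For the *Stat5a* line at 48 hr the difference in response was -0.55 ± 0.17 for *Bcl2l1* (adjusted p = 0.0134, edgeR), -0.58 ± 0.18 for *Bak1* (adjusted p = 0.0166), -0.45 ± 0.14 for *Bid* (adjusted p = 0.0167) and -0.69 ± 0.18 for *Pmaip1* (adjusted p = 0.00351). It was 0.38 ± 0.08 for *Mcl1* (adjusted p = 0.000564) and 0.49 ± 0.16 for *Bcl2* (adjusted p = 0.0176). *Bax* gave -0.39 ± 0.16 (adjusted p = 0.065), and with the replicate number as a block it passed at -0.39 (adjusted p = 0.0455), for a count of 7. Without KI replicate 1 of 0 hr the count was 3, with *Bak1*, *Bid* and *Bcl2* lost (adjusted p of 0.0625, 0.0715 and 0.0546). *Bcl2* was also lost without WT replicate 3 of 0 hr, WT replicate 2 of 48 hr, or KI replicate 2 or 3 of 48 hr. At 24 hr the count was 0 by edgeR and 0 by DESeq2, which called 795 and 1161 of all 15566 genes. There *Bcl2* had an unadjusted p of 0.0184, the only 1 of 10 under 0.05. At 4 hr the count was 0 by edgeR and 2 by DESeq2, which called 240 and 931 of all genes. There 4 genes had an unadjusted p under 0.05 (*Bcl2l1*, *Mcl1*, *Bax* and *Bbc3*). The count was 3 without WT replicate 1, 2 without WT replicate 3 and 1 without KI replicate 2 of that time. Without the shallow WT replicate 2 it was 0, beside 1.31% of all genes.

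**Figure D5:**
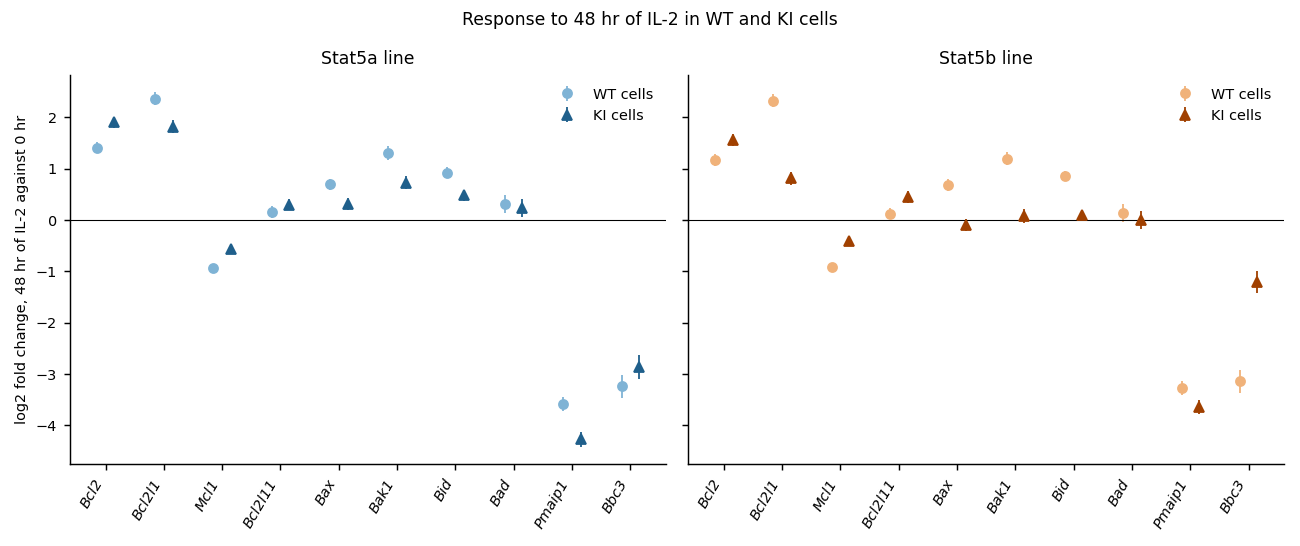
Log2 fold change of 48 hr with IL-2 against 0 hr (points) with its SE (bars) in WT and KI cells for the 10 genes, *Stat5a* line on the left and *Stat5b* line on the right. In the *Stat5b* line *Bax*, *Bak1* and *Bid* lie at -0.10, 0.08 and 0.09 in KI cells, against 0.69, 1.20 and 0.86 in WT cells.

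The lines were compared by the KI effect of the *Stat5b* line minus that of the *Stat5a* line. It differed for 3 of 10 genes at 4 hr (all lower), 4 at 24 hr (1 higher, 3 lower) and 3 at 48 hr (1 and 2), beside 10.9%, 14.1% and 11% of all genes. At 0 hr it differed for 0 of 10 genes by edgeR, beside 0.193% of all genes by edgeR. DESeq2, which called more of all genes there than edgeR did, also gave 0 of 10. At that time *Bcl2*, *Bcl2l11* and *Bbc3* had an unadjusted p under 0.05. *Bcl2* and *Bcl2l1* differed at 4, 24 and 48 hr. For *Bcl2l1* at 48 hr the KI effect was -0.55 for *Stat5a* and -1.66 for *Stat5b* KI, a difference of -1.10 ± 0.17 (adjusted p = 4.24e-05, edgeR). *Bcl2* at 48 hr gave -0.06 and -0.66, a difference of -0.60 ± 0.16 (adjusted p = 0.0101). For *Mcl1* the difference at 48 hr was 0.11 ± 0.08 (adjusted p = 0.436), for *Bax* -0.32 ± 0.16 (adjusted p = 0.208), for *Bak1* -0.37 ± 0.18 (adjusted p = 0.21) and for *Bbc3* 0.88 ± 0.31 (adjusted p = 0.063), and none of these passed. The count at 4 hr was 5 without *Stat5a* line WT replicate 1, 6 without WT replicate 3 of that group and 1 without *Stat5b* KI replicate 3. At 24 hr it was 2 without *Stat5a* line WT or KI replicate 2 or *Stat5b* line WT replicate 2. Without the shallow library, 3 genes passed at 4 hr beside 3.94% of all genes.

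Other genes of the death pathway were taken from lists, and 48 hr in the *Stat5b* line is described, where 69.9% of all genes passed with IL-2 and 63.6% in KI against WT cells. Of 12 other BCL2 family genes 10 were tested, *Bcl2l10* and *Hrk* having too few reads. With IL-2 in WT cells 1 rose and 5 fell, and in KI against WT cells 1 was higher and 1 lower. *Bmf*, a BH3-only gene, was at 1.26, 1.98 and 2.02 RPKM in WT cells at 0 hr in rising order, 0.359 to 0.453 at 48 hr and 1.77 to 2.27 in KI cells at 48 hr. Its log2 fold change was -2.28 ± 0.33 with IL-2 and 2.27 ± 0.33 in KI against WT cells (adjusted p = 2.74e-07, edgeR), and the latter was 1.76 ± 0.32 in the *Stat5a* line. *Bcl2a1a*, from a cluster of near-identical survival genes whose reads are hard to assign, had a log2 fold change of -1.02 ± 0.16 with IL-2, and *Bcl2l14* one of -1.13 ± 0.29. The KI difference of *Bcl2l13* was -0.33 ± 0.11.

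Of 8 genes of the apoptosome and caspases, 6 rose and 1 fell with IL-2, and 2 were higher and 4 lower in KI cells. *Cycs*, for the cytochrome c that the pores release, was at 18.1 to 20.1 RPKM in WT cells at 0 hr, 67.5 to 72.2 at 48 hr and 24.9 to 29.3 in KI cells at 48 hr. Its KI difference was -1.48 ± 0.14 (adjusted p = 1.04e-11, edgeR). *Casp8*, which starts the cascade at death receptors, rose by 0.98 with IL-2, and *Casp6* was higher in KI cells by 0.75. Of 7 caspase inhibitors and their antagonists, 3 rose and 3 fell with IL-2, and 2 were higher and 3 lower in KI cells. *Birc5*, for survivin, which also serves cell division, had a log2 fold change of 4.00 ± 0.31 with IL-2 and a KI difference of -1.62 ± 0.27. *Birc2*, an inhibitor that acts on death receptor signals, gave -1.16 ± 0.10 and 0.62 ± 0.10. *Birc3* gave -0.82 with IL-2, and *Htra2*, an antagonist of these inhibitors, -0.53 in KI cells.

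Of 8 death receptors and adaptors, 4 rose and 3 fell with IL-2, and 2 were higher and 1 lower in KI cells. *Fasl*, the ligand of the death receptor Fas, rose by 1.09 ± 0.24 and had a KI difference of -1.68 ± 0.25, while *Fas* was higher in KI cells by 0.72 ± 0.13 and *Cflar*, which blocks caspase 8, by 0.50. *Fadd*, the adaptor of Fas, rose by 1.32 with IL-2 and *Tnfrsf10b* gave -0.98. Of 10 factors known to act on the family, 5 rose and 4 fell, and 3 were higher and 4 lower in KI cells. *Foxo1*, of the FOXO transcription factors known to drive *Bcl2l11* and *Bbc3*, was at 52.9 to 55.5 RPKM at 0 hr, 20.0 to 22.2 at 48 hr in WT cells and was higher in KI cells by 0.93 ± 0.06 (adjusted p = 4.72e-16, edgeR). *Foxo1* in KI cells at 48 hr was at 40.7 to 43.3. *Pim1*, a survival kinase, had a KI difference of -0.92 ± 0.16. The stress genes *Ddit3* and *Trib3* gave -1.79 and 1.67 with IL-2, and *Trib3* -1.49 in KI cells. Of 5 mitochondrial outer membrane partners, 4 rose and 1 fell, and 1 was higher and 4 lower in KI cells. *Vdac1*, a channel of that membrane, was at 31.6 to 38.7 RPKM at 0 hr and 111.2 to 117.1 at 48 hr in WT cells, and its KI difference was -1.23 ± 0.07 (adjusted p = 2.48e-17, edgeR). *Vdac3* and *Bnip3l*, which marks mitochondria for removal, gave 1.45 and -1.56 with IL-2, and *Bnip3* and *Vdac2* -1.12 and -1.07 in KI cells.

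Across the 16 group means, on the log2 CPM scale, the tested gene most like *Bcl2l1* was *Immt* (Pearson r = 0.984, n = 16 groups), that most like *Bcl2* was *Txk* (0.96), and that most like *Mcl1* was *Kdm5a* (0.969). *Pmaip1* was nearest to *Trib1* (0.988), *Bbc3* to *Slc30a1* (0.978), *Bcl2l11* to *Trp53bp1* (0.978), *Bak1* to *Ndc1* (0.982), *Bid* to *Prdx3* (0.983) and *Bax* to *Tnfaip1* (0.949). Within the family the highest r over the same 16 groups was 0.93, for *Bcl2l1* and *Bid*, followed by 0.918 for *Pmaip1* and *Bbc3*, and the lowest was -0.888, for *Bcl2l1* and *Bbc3*. The next most alike were *Suv39h1* and *Abcf2* for *Bcl2l1*, *Mettl20* and *Taf1a* for *Bcl2*, *Rsf1* and *Plk1s1* for *Mcl1*, *Rhob* and *Trp53inp2* for *Pmaip1*, and *Tsc22d3* and *Smurf2* for *Bbc3*. For *Bcl2l11* they were *Rims3* and *Tnfrsf18*, for *Bak1* *Ube2l3* and *Gm6531*, for *Bid* *Tbl3* and *Mrpl36*, and for *Bax* *Cenpb* and *Gstz1*. These are descriptions over groups that share lines, times and libraries.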

How the data were processed

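The deposited tables gave, per the file headers, read counts per RefSeq transcript and RPKM, which the authors divided by transcript length and by mapped reads. The submitters' processing notes name TopHat2 2.0.11, Bowtie2 2.2.6, SAMtools 0.1.8, bedtools 2.25.0 and mm10; the counting program and the use of strand are not given in the sources used here. Polyadenylated RNA was sequenced. Of 31682 transcript rows, the longest per symbol was kept. Members and gene lists were chosen with earlier results of these data known. Counts of 47 libraries in 16 groups were fitted together with edgeR 4.0.16 (R 4.3.3; TMM, filterByExpr with a minimum count of 10, quasi-likelihood test), and p-values were Benjamini-Hochberg adjusted over 15566 genes at 0.05. The SE was the absolute log2 fold change divided by the square root of F, and RPKM values carry SDs. Differences in response at 4 hr and between lines at 0, 4 and 24 hr were added after the data were seen. So were the rescaled sums and the fits without the shallow WT library. List genes named were up to 3 called per list with the largest change at 48 hr in the *Stat5b* line, by IL-2 and by KI, and for each member the 3 genes most like it; some genes that this rule would name are not reported here. Only the fit and test of KI against WT cells of the *Stat5b* line at 48 hr were tried on simulated counts. These counts had the same spread for every gene. Response differences, line differences, sums, motifs and correlations were not simulated.

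The 48 pairs of replicates gave no identical libraries, and none fell within sampling noise. Depth was 17369112 to 60200653 reads, and the spread between libraries, which the SEs and SDs cover, was larger than the sampling noise of the reads. Replicate numbers paired libraries, by correlated deviations over 0.1 in all 3 pairs, in 2 comparisons, IL-2 at 24 hr (0.206 to 0.419) and 48 hr (0.117 to 0.192) against 0 hr in WT cells of the *Stat5a* line; where the pairing comes from is not stated. Alternatives were DESeq2 1.42.0, limma 3.58.1 on log2(RPKM + 1), other scalings, no filter, all 48 libraries, only the groups compared, another transcript per gene, a replicate block and leaving out each library. An antibody control without a table was not analysed here.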

Additional observations from a re-analysis of the deposited data

Results flagged for a closer look

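Of 40 tests of the difference in KI effect between lines (10 genes at 0, 4, 24 and 48 hr), 10 passed by edgeR, 0 of them at 0 hr, each given as the log2 KI effect of the *Stat5b* line minus that of the *Stat5a* line. *Bcl2* differed by -1.06 ± 0.17 at 4 hr (adjusted p = 0.000384), -0.65 ± 0.16 at 24 hr (adjusted p = 0.00386) and -0.60 ± 0.16 at 48 hr (adjusted p = 0.0101), and these calls held without any 1 library. Of all 15566 genes, 30, 1698, 2200 and 1717 passed at 0, 4, 24 and 48 hr. With all 48 libraries, 0 of the 10 genes passed at 4, 24 or 48 hr, beside 685, 380 and 212 of 15404 genes. With only the groups compared, 0 passed at 4 hr, beside 2 of all genes. *Bcl2l1* differed by -0.73 ± 0.18 at 4 hr (adjusted p = 0.0124), -1.09 ± 0.17 at 24 hr (adjusted p = 1.78e-05) and -1.10 ± 0.17 at 48 hr (adjusted p = 4.24e-05). The 4 hr call of *Bcl2l1* was lost without *Stat5b* KI replicate 3 (-0.60, adjusted p = 0.0555).

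*Bax* differed by -0.59 ± 0.17 at 4 hr (adjusted p = 0.0233), where the shallow WT library of the *Stat5a* line gave 28.0 RPKM, and the value without that library was -0.36 (adjusted p = 0.0329). This call was lost without *Stat5a* KI replicate 1, *Stat5b* KI replicate 1 or 3, or *Stat5b* line WT replicate 1 (adjusted p of 0.0546 to 0.102). *Bid* differed by -0.47 ± 0.14 at 24 hr (adjusted p = 0.0215), and did not pass without replicate 2 of any 1 of the 4 groups (adjusted p of 0.0595 to 0.0791). *Pmaip1* was the only gene that passed with a higher value in the *Stat5b* line, 0.52 ± 0.18 at 24 hr (adjusted p = 0.0481) and 0.57 ± 0.18 at 48 hr (adjusted p = 0.0396). It did not pass without any 1 of 7 of the 12 libraries at 24 hr (adjusted p of 0.0598 to 0.178) or any 1 of 6 at 48 hr (adjusted p of 0.0565 to 0.155).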

How the results depend on the processing

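Over 240 log2 fold changes (10 genes in 24 comparisons), no called value changed direction under DESeq2, other scalings, no filter, limma, all 48 libraries, another transcript, the replicate block or a fit of the groups compared alone. Leaving out 1 library ended 24 of 120 member calls. Among these 24, 1 changed direction, *Bak1* for IL-2 at 4 hr in *Stat5a* line WT cells (-0.036 without WT replicate 2 and 0.571 without WT replicate 3 of 4 hr). In the other direction, 33 values from fits without 1 library passed where the main fit did not. Counts of genes called, out of 10, moved by over 1.5 times in these cases. With the library of 1028515 reads included, they became, in the *Stat5a* line, 5 for IL-2 at 4 hr, 0, 3, 0 and 1 for KI at 0, 4, 24 and 48 hr, and 1 for the response difference at 48 hr; in the *Stat5b* line, 5 for IL-2 at 4 hr, 3 for KI at 4 hr, and 0, 2 and 4 for the response difference at 4, 24 and 48 hr; and between lines 0 at 4, 24 and 48 hr. Calls over all genes were also fewer in these comparisons, except for *Stat5a* KI at 4 hr, with 4662 in place of 3837. They were 43 in place of 536 for *Stat5a* KI at 0 hr and 1049 in place of 2879 at 24 hr. For the *Stat5b* response difference at 4 hr they were 52 in place of 310. Between lines they were 685, 380 and 212 in place of 1698, 2200 and 1717. The *Stat5a* response difference at 4 hr, where the count out of 10 stayed at 0, had 1615 in place of 240. With only the groups compared they were, in the *Stat5a* line, 5 for IL-2 at 4 hr, 0, 0 and 5 for KI at 0, 4 and 24 hr and 1 for the response difference at 24 hr, and between lines 1 at 0 hr (*Bbc3*), 0 at 4 hr and 8 at 48 hr. There 4, 0 and 3698 of all genes passed for *Stat5a* KI at 0, 4 and 24 hr (536, 3837 and 2879 in the joint fit). For *Stat5a* line IL-2 at 4 hr 3965 passed (9094), and for the *Stat5a* response difference at 24 hr 871 (795). Between lines 42, 2 and 3967 passed at 0, 4 and 48 hr (30, 1698 and 1717). With limma they were 0, 1 and 3 for *Stat5a* KI at 0, 24 and 48 hr, 3 for the *Stat5a* response difference at 48 hr, 2 for *Stat5b* KI at 4 hr, 0 for the *Stat5b* response difference at 4 hr, and 2 and 1 between lines at 24 and 48 hr, beside 465, 1535 and 4821, 2611, 2142, 206, and 1345 and 668 of 11735 genes. For *Stat5a* KI at 24 hr library totals without TMM gave 1, beside 2951 of 15566 genes, and no filter 1, beside 2613 of 21041. DESeq2 gave 2 for the *Stat5a* response difference at 4 hr, beside 931 of 15566 genes. The cause of these moves was not tested. Leaving out each library gave, in the *Stat5a* line, 7 to 9, 8 to 9 and 8 to 10 for IL-2 at 4, 24 and 48 hr, 0 to 2, 0 to 8, 0 to 1 and 5 to 6 for KI at 0, 4, 24 and 48 hr, and 0 to 3, 0 to 0 and 3 to 7 for the response difference. In the *Stat5b* line it gave 7 to 8, 9 to 9 and 8 to 8, then 4 to 4, 4 to 5, 9 to 9 and 7 to 8, then 1 to 3, 5 to 5 and 6 to 7, and between lines 0 to 0, 1 to 6, 2 to 4 and 2 to 3 at 0, 4, 24 and 48 hr. Without TMM the median over all genes for *Stat5b* KI at 48 hr was 0.32 in place of 0.10, and no member changed direction.

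With the replicate number as a block no count moved by over 1.5 times and no call was lost. The block gave same-numbered libraries of a line a shared term, across both genotypes and all times. Deviations of same-numbered KI and WT libraries had correlations of only -0.223 to 0.074. Pairing within a genotype over time was not modelled apart, so the block cannot tell whether calls hold under it. Passing under the block but not without it were *Bbc3* in *Stat5a* KI at 4 hr (0.62, adjusted p = 0.0438), *Bax* in the *Stat5a* response difference at 48 hr (-0.39, adjusted p = 0.0455), *Bbc3* in the *Stat5b* response difference at 4 hr (1.04, adjusted p = 0.0421) and *Bax* between lines at 24 hr (-0.44, adjusted p = 0.0414). Other than in the pair of IL-2 comparisons named under processing, the rule for pairing was not met. Missing it does not show that libraries were unpaired. For IL-2 against 0 hr the correlations were 0.161 to 0.181 in *Stat5a* KI cells at 4 hr and 0.075 to 0.244 in *Stat5b* KI cells at 4 hr. They were 0.019 to 0.056 in *Stat5b* line WT cells at 48 hr and -0.226 to 0.426 in *Stat5a* line WT cells at 4 hr. The main fit had no term for pairing. Depth is lowest in *Stat5a* line WT replicate 2 of 4 hr, where *Bad* had 68 reads. Rescaling by the TMM effective library size moved 67 of 160 mean RPKM values by over 1 SD. This changed the total from mapped reads to reads on kept transcripts and applied TMM, and the parts were not separated.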
